A study of Mus musculus with 15 samples.

Results

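The genes described here encode the protein components of the cytosolic ribosome, measured by bulk RNA sequencing of mouse ileum, the last stretch of the small intestine. They were taken by symbol: every gene of the table whose name starts with Rpl or Rps and a digit, with Rplp0, Rplp1, Rplp2 and Rpsa, and without the annotated pseudogenes, the S6 kinases and Rps19bp1. That gave 88 genes of the 25329 in the table, 54 of the large and 34 of the small subunit, spread over 19 chromosomes. The 88 include 10 paralogs, which are additional copies such as Rpl22l1 or Rps27rt beside a parent gene.

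Mice of 3 genotypes were compared, with 5 libraries each. WT mice had floxed Tak1 alleles (Tak1f/f), HO mice (TAK1 IEC-KO) lacked the kinase in their gut epithelium, and DHO mice carried that loss together with the D138N allele on both copies of Ripk1 (TAK1 IEC-KO Ripk1 D138N/D138N), which removes the kinase activity of RIPK1. TAK1 is a kinase of inflammatory signalling that holds back RIPK1-dependent cell death, and the study asked what the kinase activity of RIPK1 contributes to ileal inflammation after its loss. All groups shared the tamoxifen treatment, given into the peritoneum as 80 mg/kg on 3 daily occasions, and were taken 3 days after induction. The labels do not say which promoter drove deletion, nor the age, sex, litter or batch of the mice, and whole ileum also holds cells in which Tak1 was not deleted. Nothing in the labels says that the 5 libraries of a group came from separate mice, so the p-values measure the spread between libraries.

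Libraries held 38724783 to 40590053 reads, as recovered from the steps in the deposited values, which are read counts scaled to gene length and library depth (FPKM). Map3k7, the gene of TAK1, ran from 9.39 to 11.2 FPKM in WT, from 6.88 to 9.42 in HO and from 8.31 to 10.1 in DHO. Its log2 change against WT was -0.24 (SE 0.09, adjusted p = 0.0419) in HO by the limma test described below, and the HO and WT ranges overlapped in this whole tissue. The median gene changed by -0.25 in the same comparison, with 42.9% of all genes lower, so this value does not set Map3k7 apart from other genes. One HO library stood apart by its tissue markers: HO 1 had 0.0491 FPKM of Fabp6, an ileal bile acid binding protein, against 6935 to 11847 in WT, no read of Fgf15, and 2504 FPKM of Fabp1, a proximal gut marker. DHO 3 and DHO 4 also carried proximal markers, with a summed level of 466 and 417 FPKM against 3.06 to 5.02 in WT. Ileal markers summed to 7.88, 2257, 4654, 3733 and 13299 FPKM in HO 1 to HO 5. The sums were 7256 to 12018 in WT and 7540 to 9947 in DHO, so HO 5 was the only HO library not below them. The B cell markers of HO 2, HO 4 and DHO 1 summed to 50.7, 119 and 54.6 FPKM, and those of the other 12 libraries to 8.32 or less. Each headline count below is therefore also given without HO 1, DHO 3 and DHO 4, and without HO 2, HO 4 and DHO 1. Neither choice leaves out HO 3, which was also low in ileal markers.

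A ribosome is built from 2 subunits: the small one reads the messenger RNA, and the large one joins amino acids and releases the growing chain through an exit tunnel. Each standard particle takes 1 copy of most of its proteins, so their genes are usually expressed in close proportion, and ribosomal proteins that find no partner are degraded. Their messenger RNAs start with a run of pyrimidines, the 5′ terminal oligopyrimidine (5′ TOP) motif, through which the kinase mTOR and the protein Larp1 control their translation and stability. In the gut, crypt stem and dividing cells are rich in ribosomes, since the epithelium is renewed continually.

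The annotated start sites of 6 members are shown because a pyrimidine start is the sequence feature for which these messenger RNAs are known. The 6 were picked after their values were seen, from members in which a pyrimidine run covers the first annotated base. That each of the 6 holds such a run was therefore fixed by the choice and says nothing about the other members. Each line gives 15 bases before and 25 bases after the start as RefSeq places it on GRCm38.p6, with the pyrimidine run in capitals.
Rpl28 (chr7:4792950-4792989, plus strand): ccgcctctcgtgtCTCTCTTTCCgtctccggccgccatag
Rps18 (chr17:33955641-33955680, minus strand): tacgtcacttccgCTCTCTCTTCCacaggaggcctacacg
Rps9 (chr7:3704026-3704065, plus strand): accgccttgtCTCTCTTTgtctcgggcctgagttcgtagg
Rps27 (chr3:90213624-90213663, minus strand): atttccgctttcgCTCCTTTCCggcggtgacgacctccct
Rplp2 (chr7:141447636-141447675, plus strand): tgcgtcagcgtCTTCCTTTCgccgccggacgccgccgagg
Rpl35 (chr2:39005107-39005146, minus strand): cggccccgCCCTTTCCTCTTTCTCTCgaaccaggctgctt

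A promoter sequence was found for 67 of the 88 members. A run of at least 8 pyrimidines beginning with C, searched on the transcribed strand within 25 bases either side of the annotated start, was present in 35 of them, or 52.2%. It was present in 17.7% of all 27025 promoters in the RefSeq promoter set, in 19.3% of the 9098 promoters of genes tested, and in 20.3% of those of the mitochondrial ribosomal protein genes. In 17 members, with paralogs and chromosome 18 left out, the run covered the first annotated base. Members with the run had a median log2 change of -0.95 in HO (33 tested), and those without it -0.94 (31 tested).

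In WT ileum the members were among the most abundant messenger RNAs. The 85 members that reached 1 FPKM in at least 5 libraries had a median WT level of 406 FPKM, against 7.02 FPKM for all 11332 genes that passed the same filter. Rpl41, which encodes the smallest ribosomal protein, was highest with 2183 ± 151 FPKM, followed by Rplp1, an acidic stalk protein, with 1548 ± 79.5. Rps14 (965 ± 117), Rps26 (922 ± 77.2) and Rps29 (866 ± 50.5), 3 small-subunit proteins, came next, and the WT libraries of these 3 overlapped. At the low end, 8 tested members stayed under 100 FPKM in WT, among them the paralogs Rpl32l (1.43 ± 0.224), Rpl7l1 (24.9 ± 2.43), Rpl37rt (32.0 ± 1.56), Rpl6l (41.2 ± 2.41), Rps27l (51.1 ± 2.18) and Rps27rt (52.0 ± 7.88).

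Rpl39l, Rpl3l and Rps23rg1 did not pass the filter and were not tested. Rpl39l, a paralog best known from testis, had 1 read in WT 1, HO 2 and DHO 4, 4 reads in HO 3, 9 reads in HO 4 and none in the other libraries. Rpl3l, the striated muscle paralog of Rpl3, had between 0 and 4 reads in every library. Rps23rg1, a retroposed copy of Rps23, had 4, 1, 1, 11 and 6 reads in the WT libraries, 0 in every HO library and 8, 1, 3, 8 and 20 in the DHO libraries, too few for a fold change.

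All 85 members tested were lower in HO than in WT, the comparison that addresses loss of TAK1 with RIPK1 kinase intact. By limma on log2(FPKM + 1) with Benjamini-Hochberg adjustment over all genes, each passed at an adjusted p of 0.00565 or less. Over all genes tested, 42.9% were lower and 12.4% higher by the same rule. The median member changed by -0.95 on the log2 scale, with a range of -1.31 to -0.55, while the median gene changed by -0.25. The difference between these medians was -0.70. On the FPKM scale the HO mean was 35.4% to 67.9% of the WT mean, with a median of 52.2% and the low-abundance Rpl32l at the lower end.

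The groups did not overlap for 83 of the 85 members in HO and WT, against 29.8% of all genes with HO entirely below WT and 6.19% entirely above. Rps27 and its copy Rps27rt were the exceptions, each because of the value in HO 4. Of the members, 32 fell by more than 1 on the log2 scale, and 7.37% of all genes tested fell and 4.09% rose past that size with a call. Scaling the libraries by the median of ratios put the median gene at -0.03, left 25.2% of all genes lower and 22.0% higher, and left 84 members lower with a median of -0.69; Rpl7l1 was the member that no longer passed. Quantile normalization left 27.8% of all genes lower and 22.1% higher, with all 85 members lower and a median of -0.80. All 85 were lower with HO 1, DHO 3 and DHO 4 left out (median -0.86) and with HO 2, HO 4 and DHO 1 left out (median -0.99). Fewer ribosome-rich cells in the tissue and less of these messenger RNAs per cell cannot be told apart in bulk RNA.

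**Figure D1:**
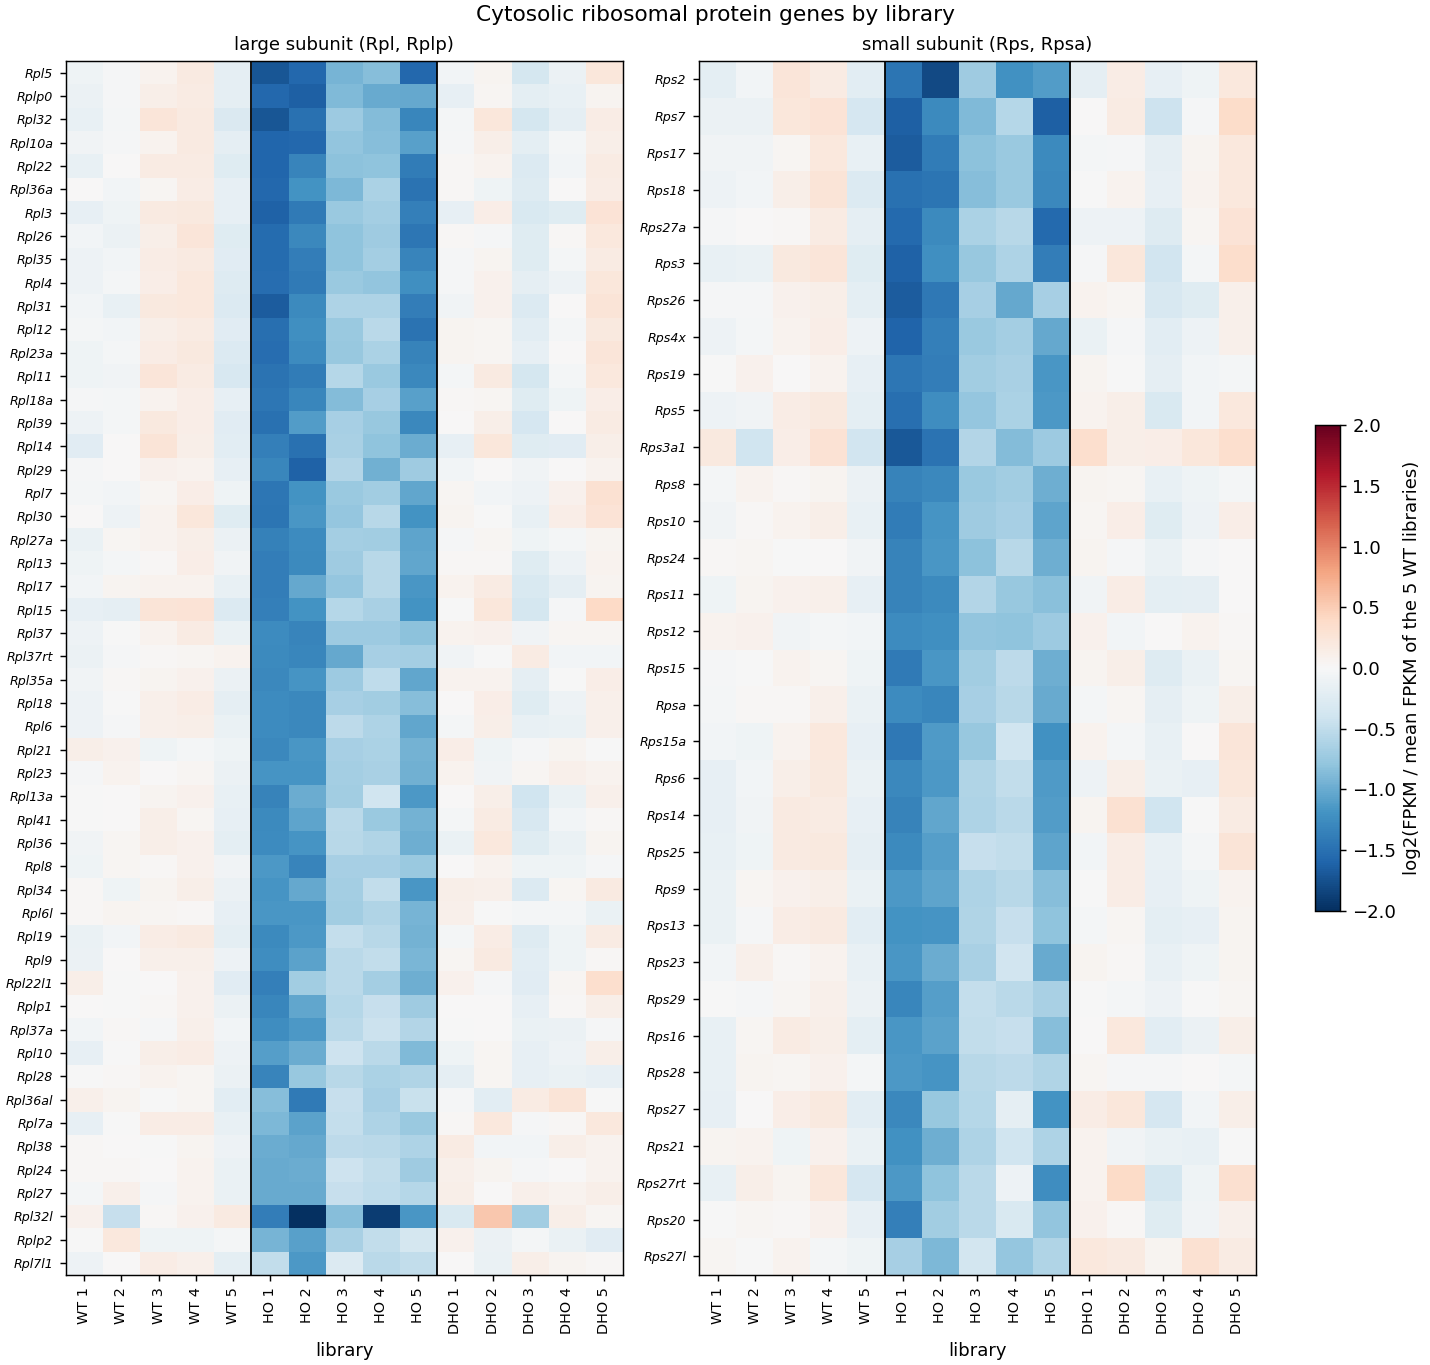
Heat map of the 85 members tested, 1 row per gene and 1 column per library, coloured by log2 of the FPKM over the mean of the 5 WT libraries; large-subunit genes are on the left and small-subunit genes on the right, each sorted by the change in HO. The 5 HO columns are blue for nearly every gene and darkest in HO 1 and HO 2, and the DHO columns are close to white.

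Summed over the 88 members, their share of all FPKM was 7.41%, 7.66%, 8.31%, 8.66% and 7.26% in the WT libraries. It was 3.08%, 3.70%, 5.03%, 5.38% and 4.17% in the HO libraries and 8.28%, 8.51%, 6.91%, 7.40% and 8.94% in the DHO libraries. Every HO library lay below every WT and DHO library, and the means were 7.86% ± 0.60, 4.27% ± 0.94 and 8.01% ± 0.84 (SD, n = 5). Counted in reads, the share was 3.29% for WT, 1.72% for HO and 3.25% for DHO. Of the 100 genes with the highest FPKM in a library, 22.2 on average were members in WT libraries, 5.0 in HO libraries and 21.4 in DHO libraries. The 10 highest genes of a library took 21.3% ± 2.52 of all FPKM among WT samples, 26.1% ± 2.71 among HO samples and 18.9% ± 1.45 among DHO samples. Reg3b, an antimicrobial lectin, was the highest gene in all WT libraries (5.37% to 8.81%) and all HO libraries (8.03% to 12.2%), and its part in the lower share of the members was not tested.

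The proportion of the 2 subunits was close in all groups. The summed FPKM of large-subunit members was 1.36 ± 0.015 times that of small-subunit members in WT, 1.38 ± 0.024 in HO and 1.35 ± 0.013 in DHO (SD, n = 5), and the HO range overlapped both others; the ratio was not tested. All 52 large-subunit members tested were lower in HO with a median of -0.94, and all 33 small-subunit members with a median of -0.95, where 42.9% of all genes were lower.

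**Figure D2:**
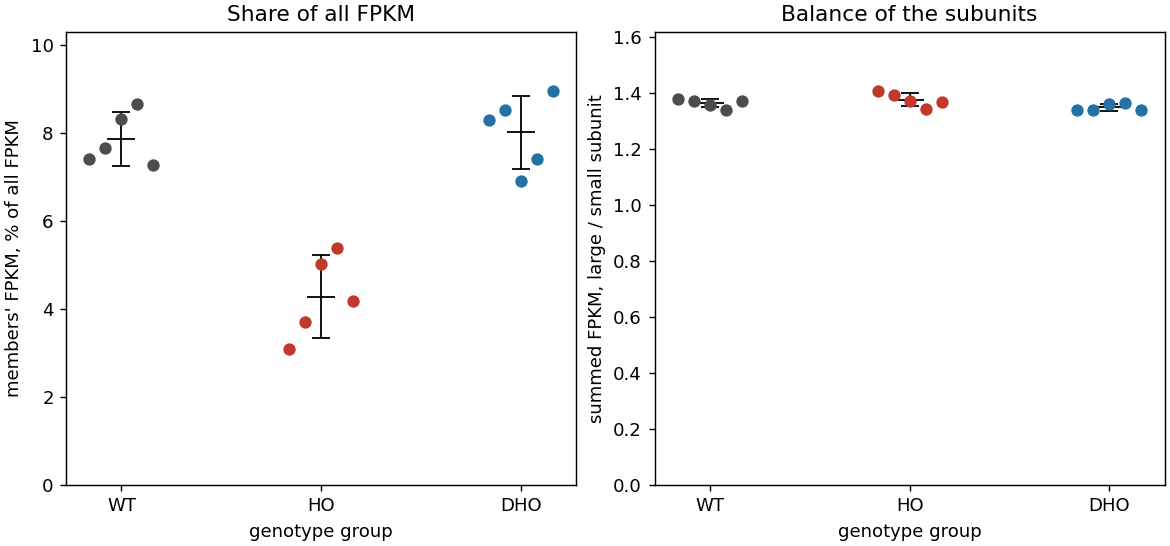
Share of all FPKM taken by the 88 members (left, %) and summed FPKM of large-subunit over small-subunit members (right, ratio), 1 point per library with the mean and SD of each genotype. HO libraries span 3.08% to 5.38% against 7.26% to 8.66% in WT, while the ratio stays between 1.34 and 1.41 in all 15 libraries.

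On the log2(FPKM + 1) scale the largest fall was that of Rpl5 (chr5:107900508-107909005, GRCm38), which with Rpl11 carries the 5S ribosomal RNA into the large subunit and can bind Mdm2, the ubiquitin ligase of p53. Rpl5 read 267, 279.6, 298, 322 and 250.2 FPKM in WT 1 to WT 5. The HO libraries read 86.9, 95.3, 149, 157 and 95.9, and the DHO libraries 271, 295, 223, 262 and 332. The highest HO library lay below the lowest library of both other groups, and HO 1, HO 2 and HO 5 formed a low trio under 100 FPKM. Against WT, Rpl5 changed by -1.31 (SE 0.16, adjusted p = 2.04e-05) on the log2 scale. Rpl11 read 235, 239, 294, 280.4 and 201 in WT and 89.4, 94.3, 169, 149 and 102 in HO, a change of -1.08 (SE 0.18, adjusted p = 0.000177), with the same 3 HO libraries lowest.

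At the base of the stalk that recruits elongation factors, Rplp0 read 670.4, 716, 786, 808 and 639 in WT and 244, 234, 394, 362 and 357 in HO, and changed by -1.21 (SE 0.14, adjusted p = 1.32e-05). Its partners at the stalk, the acidic proteins Rplp1 and Rplp2, fell less. Rplp1 read 625, 751, 1042, 1128 and 944 in HO against 1428 to 1648 in WT, a change of -0.82 (SE 0.14, adjusted p = 0.0002). Rplp2 read 366, 327, 445, 492 and 544 in HO against 654 to 800.3 in WT, a change of -0.70 (SE 0.13, adjusted p = 0.00042), and was among the 5 members nearest to 0. All 3 stalk genes were lower in HO, as were all 85 members tested and 42.9% of all genes. The difference between Rplp0 and its partners was not tested directly.

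On the small subunit, the proteins listed at or near the entry of the messenger RNA channel were all lower. All 5 passed, as did all 85 members tested, where 42.9% of all genes were lower. Their median was -0.99 against -0.25 for all genes. Rps2, which sits at that entry, read 682, 753, 917, 867 and 669 in WT and 283, 222, 473, 335 and 358 in HO, a change of -1.25 (SE 0.17, adjusted p = 3.93e-05). Rps3, its neighbour, which also has a known role in DNA repair, averaged 390.1 ± 61.3 in WT and 186 ± 54.9 in HO (-1.10). Rps6, the classic substrate of the S6 kinases, averaged 276 ± 30.7 and 148 ± 38.1 (-0.92). In each of these genes all 5 HO libraries were below all 5 WT libraries.

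Among the other large falls, Rpl32 of the large subunit read 619, 673, 815, 776 and 561 in WT and 211, 245, 417, 376 and 277 in HO (-1.20, SE 0.18, adjusted p = 8.60e-05). Rps7, which with other small-subunit proteins is needed for rRNA maturation, read 415, 417, 527, 545 and 356 in WT and 145, 188, 245, 304 and 146 in HO (-1.18, SE 0.20, adjusted p = 0.000275). HO 1 and HO 5 were lowest for Rps7 and differed from each other by less than 1 FPKM. Rps18, at the head of the small subunit, fell from 763 ± 109 to 348 ± 86.8 (-1.15), and Rps3a1 from 593 ± 132 to 295 ± 92.1 (-1.04).

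All 10 members that line or surround the exit tunnel were lower in HO, with a median of -1.09; Rpl39, which lies in the tunnel wall, averaged 528 ± 61.7 FPKM in WT and 259 ± 62.8 in HO (-1.05). All 19 members whose human counterparts are mutated in Diamond-Blackfan anaemia were lower, with a median of -0.99. The best known of these, Rps19, read 344, 369, 348, 365 and 311 in WT and 127, 134, 214, 222 and 155 in HO, a change of -1.06 (SE 0.14, adjusted p = 3.58e-05). Rps26, a protein of the messenger RNA exit that belongs to the same list, read 291, 344, 583, 455 and 585 in HO against 806 to 1002 in WT. Since all 85 members tested were lower, any list of members gives a full count, and 42.9% of all genes were lower. No list was tested against another.

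Other well-known members moved alike. Rps27a, which is made as a fusion with ubiquitin, averaged 494 ± 42.5 in WT and 239 ± 82.6 in HO (-1.10). Rpsa, also known as the laminin receptor precursor, averaged 433 ± 26.6 and 228 ± 54.4 and was the median member (-0.95). Rpl10, one of the last proteins to join the large subunit, averaged 675 ± 62.4 and 398 ± 83.3 (-0.78), and Rpl41, the most abundant member, 2183 ± 151 and 1178 ± 232 (-0.91).

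**Figure D3:**
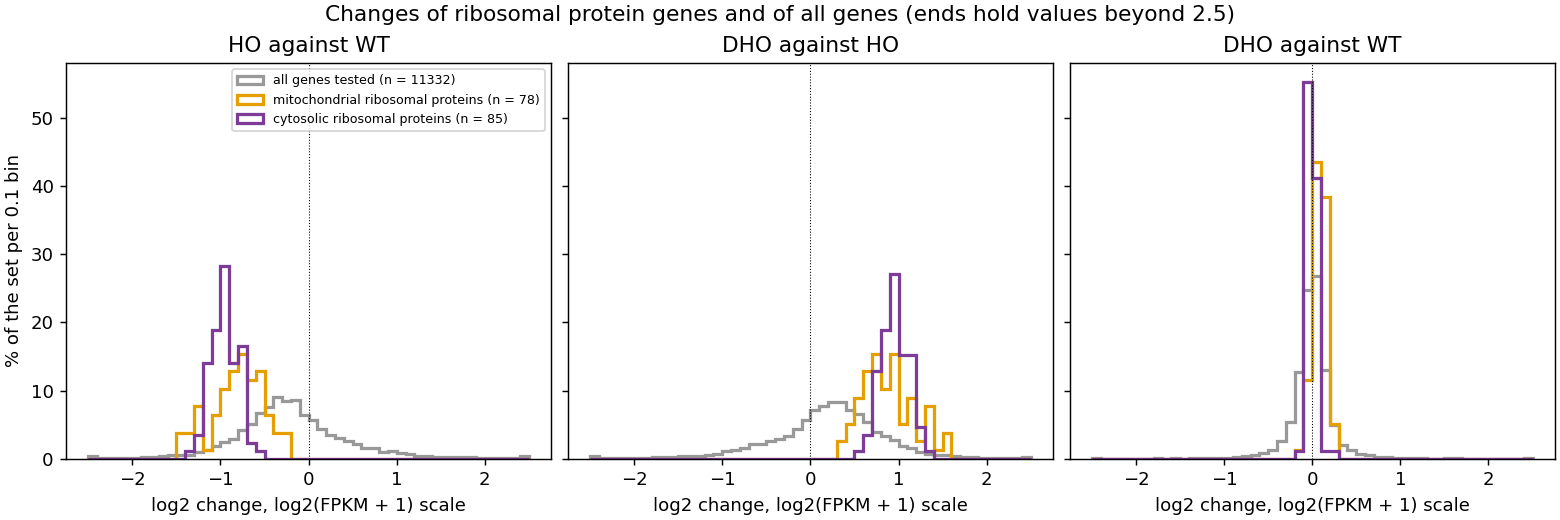
Distribution of the log2 changes in the 3 comparisons for all 11332 genes tested (grey), the 78 mitochondrial ribosomal protein genes (orange) and the 85 cytosolic ones (purple), as % of each set per bin of 0.1. The cytosolic genes lie between -1.31 and -0.55 in HO against WT, between 0.57 and 1.30 in DHO against HO, and within -0.12 to 0.26 in DHO against WT.

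With RIPK1 kinase inactive, the members stood higher than in HO. All 85 were higher in DHO than in HO, each at an adjusted p of 0.00275 or less, where 42.8% of all genes were higher and 13.4% lower. The median member changed by 0.94 (range 0.57 to 1.30) and the median gene by 0.25. Past a rise of 1 were 31 members, against 7.7% of all genes that rose and 4.11% that fell by that much with a call. DHO lay entirely above HO for 83 members, against 27.9% of all genes (and 5.44% entirely below), with Rps27 and Rps27rt again as the overlapping pair. Under median-of-ratios scaling 27.7% of all genes were higher and 22.4% lower, and 84 members were higher with a median of 0.70, without Rpl7l1. Under quantile normalization 29.2% were higher and 22.9% lower, and 85 members were higher with a median of 0.78. Without HO 1, DHO 3 and DHO 4 all 85 were higher with a median of 0.93, and without HO 2, HO 4 and DHO 1 all 85 with a median of 0.99. The HO libraries are the same as in the comparison with WT, so the falls and the rises are not independent of each other.

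The largest rise was that of Rps3a1, a small-subunit protein. Rps3a1 read 183, 213, 393, 327 and 358 FPKM in HO and 746, 645, 649.6, 696 and 752 in DHO, a log2 change of 1.30 (SE 0.20, adjusted p = 0.000109). In WT it was 681, 450.4, 653, 728 and 453, with WT 2 and WT 5 well under the other 3. Rpl5, the member with the largest fall, was next (1.27, SE 0.16, adjusted p = 2.51e-05). Rps2, Rps7 and Rps18 followed with 1.25, 1.22 and 1.20. Rps2 read 689, 866, 692, 736 and 904 FPKM in the DHO libraries, all above the HO maximum of 473.

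The smallest rises belonged to Rpl7l1 (0.57, SE 0.13, adjusted p = 0.00152), Rplp2 (0.61, SE 0.13, adjusted p = 0.000952) and Rpl28 (0.65, SE 0.13, adjusted p = 0.000537), a large-subunit protein. Rpl28 read 835, 852, 877, 859 and 774 in WT, 334, 495, 569, 542 and 555 in HO and 742, 859, 746, 764 and 747 in DHO. DHO 2 lay with the WT libraries, while the other 4 DHO libraries lay just under the lowest WT value.

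No member passed between DHO and WT. None of the 85 passed by limma, none had an unadjusted p under 0.05, and none passed in limma-voom on the recovered reads; 0.0794% of all genes were higher and 0.159% lower in this comparison. Nor did any pass under median-of-ratios scaling (0.0353% of all genes higher, 0.0971% lower) or quantile normalization (0.0882% and 0.212%). The median member changed by -0.0040 and the extremes were Rpl28 (-0.12) and Rps3a1 (0.26). The smallest adjusted p, 0.888, belonged to Rps27l, whose DHO mean of 58.1 ± 3.62 FPKM stood against 51.1 ± 2.18 in WT. All 85 groups overlapped, where 2.44% of all genes had DHO entirely above WT and 1.96% entirely below. The means in DHO were 91.9% to 118% of those in WT, with a median of 99.8%.

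A missed threshold leaves room for differences within the intervals. Over the members, the 95% intervals reached from -0.44 (Rps26) to 0.69 (Rps3a1) on the log2 scale. For Rplp1 the interval was -0.29 to 0.29 around a change of 0.00033, and for Rpl5 it was -0.39 to 0.31. With HO 1, DHO 3 and DHO 4 left out, 0 members passed and the median was 0.08. Again 0 passed with HO 2, HO 4 and DHO 1 left out.

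Members were then compared with one another, by centring each library on its median member, a scale chosen after the data were seen. The uncentred changes in HO against WT had an SD of 0.16 on the log2 scale over the 85 members and of 0.67 over all genes. On the centred scale 76.7% of all genes were higher and 2.41% lower in HO against WT at an adjusted p under 0.05 by limma, because the reference itself fell. With that many calls the adjustment hardly changes a member's p, so no member is called from it and the values are given as a description. Of the 85 members, 9 had an unadjusted p under 0.05 in HO against WT, 11 in DHO against HO and 0 in DHO against WT. The shares of all genes are known only at an adjusted p under 0.05, a stricter rule, so they do not match these counts. By that rule 2.38% of all genes were higher and 75.9% lower in DHO against HO, and 0.0265% and 0.168% in DHO against WT.

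Rpl5 was the lowest member in HO against WT, at -0.36 relative to the median member (95% interval -0.58 to -0.14, not adjusted for the 85 members). In DHO against HO it stood at 0.32 (0.09 to 0.54). With each library left out in turn it ranged from -0.39 to -0.32 and from 0.27 to 0.36. Rpl7l1, a paralog of Rpl7 known as a factor of large-subunit assembly, was the highest member in HO against WT, at 0.40 (0.12 to 0.68), and the lowest in DHO against HO, at -0.38 (-0.66 to -0.10). Both comparisons use the same HO libraries, so the opposite signs are not independent.

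**Figure D4:**
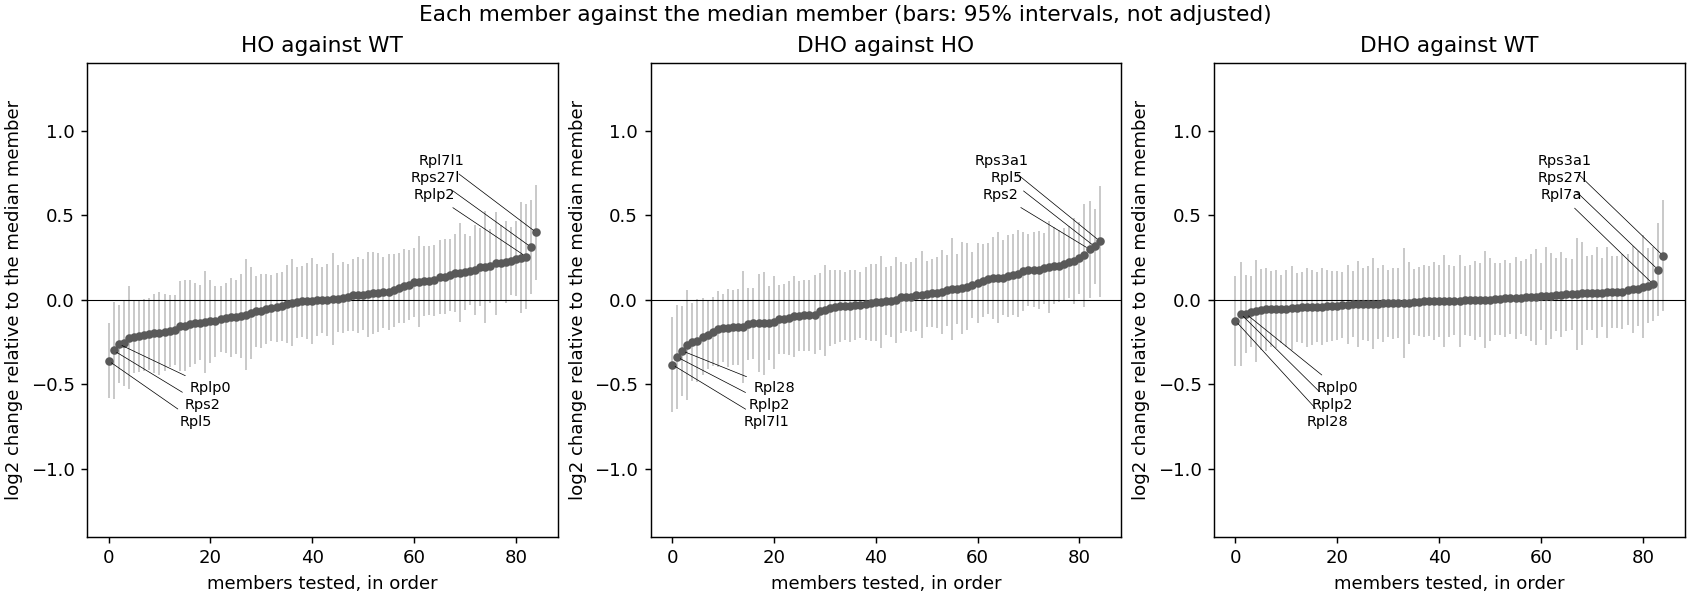
Log2 change of each of the 85 members relative to the median member, in order of size, with unadjusted 95% intervals, for the 3 comparisons; the 3 lowest and 3 highest members of each are named. Rpl5 is lowest at -0.36 and Rpl7l1 highest at 0.40 in HO against WT, and Rpl7l1 is lowest and Rpl5 among the highest in DHO against HO.

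The 8 paralogs tested were all lower in HO (median -0.75) and higher in DHO against HO (median 0.82). The count for the paralogs is the same as for the other members, 77 of which were tested and all lower. Rps27rt is a retroposed copy whose 252 coding bases are identical to those of Rps27, so reads from the coding part cannot be assigned to one of them. Rps27l encodes a close relative, known as a p53 target, and its coding sequence is 76.2% identical to that of Rps27. The first 90 coding bases of the 3 genes are given from GENCODE M21 on GRCm38, with the span of each gene in parentheses and capitals for the letters that differ from Rps27.
Rps27 (chr3:90212522-90213651, minus strand): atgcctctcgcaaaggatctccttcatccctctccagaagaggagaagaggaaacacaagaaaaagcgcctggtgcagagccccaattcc
Rps27rt (chr9:114982366-114982739, minus strand): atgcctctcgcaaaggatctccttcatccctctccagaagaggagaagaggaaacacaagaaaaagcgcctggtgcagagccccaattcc
Rps27l (chr9:66946086-66949516, plus strand): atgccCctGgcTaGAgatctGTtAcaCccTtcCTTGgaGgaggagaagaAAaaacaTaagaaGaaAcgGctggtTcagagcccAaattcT

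Rps27rt shows no capitals, and Rps27l has 24 in these 90 bases. Rps27 read 652, 733, 798, 834 and 634 FPKM in WT and 297, 434, 491, 643 and 319 in HO, where HO 4 lay above WT 5. Rps27rt also had HO 4 as its highest HO library, with 46.9, 56.3, 54.3, 61.2 and 41.3 in WT and 23.6, 29.7, 35.7, 48.4 and 21.9 in HO. The changes in HO were -0.79 (SE 0.18, adjusted p = 0.00232) and -0.73 (SE 0.20, adjusted p = 0.00565), and both values should be read as uncertain because of the shared sequence. Rps27l read 52.7, 51.0, 53.8, 49.7 and 48.4 in WT and 32.4, 27.5, 39.7, 29.9 and 33.9 in HO (-0.64, SE 0.09, adjusted p = 6.58e-05), and HO 4 was not its highest HO library.

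Rpl22 binds ribosomal RNA and is known to restrain its paralog Rpl22l1, with which it shares 67.5% of its coding bases. Rpl22 read 91.7, 103, 114, 114 and 86.3 in WT and 33.9, 40.7, 57.8, 57.9 and 38.7 in HO (-1.16, SE 0.15, adjusted p = 2.46e-05). Rpl22l1 read 244, 225, 227, 239 and 194 in WT and 87.1, 139.9, 155, 141 and 114 in HO (-0.84, SE 0.14, adjusted p = 0.000242). Both were lower in every HO library than in any WT library. Rpl36a and Rpl36al, 87.7% identical, changed by -1.15 (SE 0.15, adjusted p = 3.31e-05) and -0.76 (SE 0.16, adjusted p = 0.00102). HO 2 was the lowest HO library for Rpl36al, at 72.2 FPKM, whereas HO 1 was lowest for Rpl36a at 133.

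Rpl7l1, 54.4% identical to Rpl7 over the coding bases, had the smallest fall of all members. It read 23.3, 25.2, 27.7, 26.6 and 21.7 FPKM in WT, 17.8, 11.3, 20.5, 17.2 and 17.7 in HO, and from 22.7 to 27.1 in DHO. HO 2 was well below the other HO libraries, and the highest HO library, HO 3, was still below the lowest WT library. Rpl37rt, Rpl6l and Rpl32l changed by -0.94, -0.88 and -0.70. Rpl32l rests on 4 to 50 reads per library, and the added 1 FPKM understates its change: its HO mean was 35.4% of WT.

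**Figure D5:**
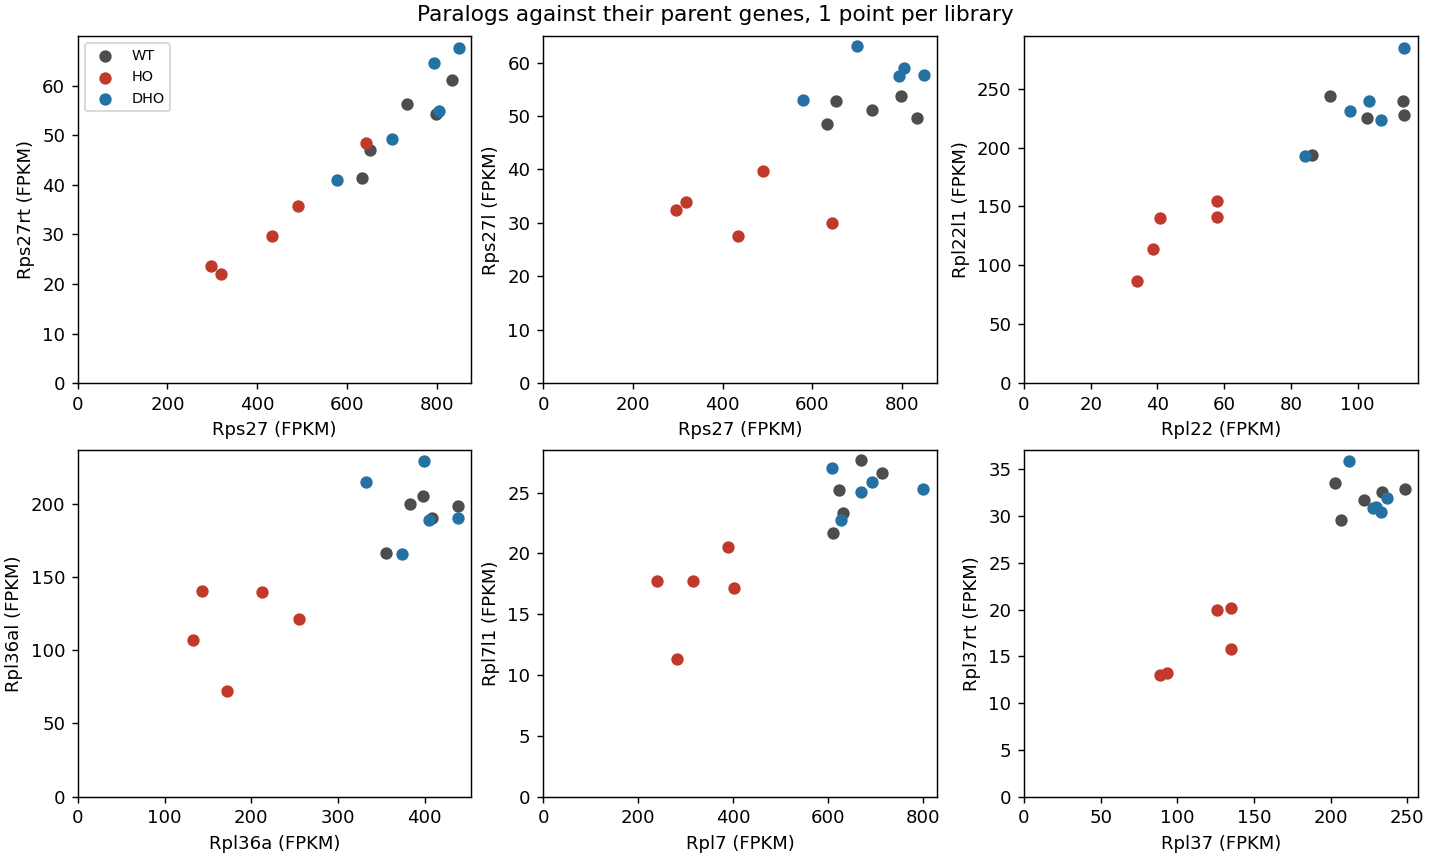
FPKM of 6 paralogs (vertical axes) against their parent genes (horizontal axes), 1 point per library, grey for WT, red for HO and blue for DHO. WT and DHO points lie mostly at the top right of each panel and HO points toward the lower left; for Rps27 and Rps27rt the HO 4 point lies among the WT points.

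The mouse genome holds many processed copies of ribosomal protein genes. Over the 82 tested members with GENCODE transcripts, a median of 35.5% of the 50-base words of a member's transcripts also occurred in transcripts of another gene, with a range of 0 to 91.1%. The 23 members with at least 50% had a median change of -0.99 in HO and the other 59 one of -0.95. The 13 annotated pseudogenes that the rule left out reached at most 33.4 FPKM in any library, and Rpl34-ps1, at 30.4 ± 1.66 FPKM in WT, was the 1 that passed the filter.

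Within a genotype, the same libraries were lowest or highest for most members. HO 1 was the lowest HO library for 64 of the 85 members and HO 2 for 20, while HO 4 was the highest for 49 and HO 3 for 32. HO 3 and HO 4 were the 2 highest for 72 members. Relative to the WT means, the median member stood at 39.6% in HO 1, 43.9% in HO 2, 63.2% in HO 3, 64.8% in HO 4 and 49.4% in HO 5. Among WT libraries WT 5 was lowest for 66 members and WT 4 highest for 55, with median members at 89.6% and 109%. Among DHO libraries DHO 3 was lowest for 68 and DHO 5 highest for 45, at 87.9% and 108%. The range within HO was thus wider than within either other group. Library HO 1 is the one with the lowest sum of ileal markers, and HO 4 the one with the most B cell markers. Their part in the order within HO was not tested.

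Rack1 and Fau encode proteins of the small subunit and lie outside the symbol rule. Rack1, a scaffold for signalling proteins on the ribosome, read 473, 515, 605, 629 and 479 FPKM in WT and 175, 176, 288, 267 and 216 in HO (-1.29, SE 0.16, adjusted p = 1.78e-05). Fau, a fusion of a ubiquitin-like protein with a small-subunit protein, averaged 641 ± 26.3 in WT and 439.6 ± 65.8 in HO (-0.56, SE 0.11, adjusted p = 0.000604). Both were higher in DHO than in HO, with 1.27 and 0.59. Under median-of-ratios scaling and quantile normalization Fau did not pass in HO against WT, at -0.29 and -0.23.

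The proteins of the mitochondrial ribosome, which are made from nuclear genes but belong to another ribosome, were lower as well. Of 78 tested, 76 were lower in HO (42.9% of all genes) with a median of -0.75. In DHO against HO 78 were higher (42.8% of all genes) with a median of 0.88. Their summed level was 2016 ± 109 FPKM for WT, 1155 ± 196 for HO and 2122 ± 109.8 for DHO (SD, n = 5). Mrpl42 had one of the larger changes, from 65.9 ± 5.86 to 25.5 ± 5.75 (-1.36, SE 0.13, adjusted p = 3.27e-06), and Mrpl17 and Mrps6 were the 2 that did not pass, at -0.27 and -0.43. Median-of-ratios scaling left 54 lower in HO and 68 higher in DHO against HO, where 25.2% and 27.7% of all genes were. The range of the mitochondrial genes, -1.44 to -0.26, was wider than that of the cytosolic ones.

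Other messenger RNAs known for a 5′ TOP start, mainly translation factors, were mostly lower too. The pyrimidine run searched above was found in 3 of the 12 of them with a promoter sequence. Of 17, 15 were lower in HO (median -0.91), where 42.9% of all genes were. In DHO against HO 15 were higher (median 0.90), where 42.8% of all genes were. Eef1b2, which reloads the elongation factor with GTP, ranged from 155 to 195 in WT and from 68.4 to 95.5 in HO (-1.07, SE 0.11, adjusted p = 3.91e-06). Eif4b, an initiation factor, averaged 76.8 ± 10.3 and 34.3 ± 5.59 (-1.15, SE 0.15, adjusted p = 2.91e-05), and Pabpc1, which binds poly(A) tails, 173 ± 19.1 and 92.3 ± 13.1 (-0.91). Nap1l1 (-0.27, adjusted p = 0.377) and Vim (0.76, adjusted p = 0.0524) did not pass in HO. Vim, an intermediate filament protein of mesenchymal cells, was the 1 gene of the list that was lower in DHO against HO (-0.81).

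Factors that build ribosomes were lower in most cases. Of 20 biogenesis factors 16 were lower in HO (median -0.56), where 42.9% of all genes were. In DHO against HO 18 were higher (median 0.64), where 42.8% of all genes were. Dkc1, the pseudouridine synthase of rRNA, averaged 7.04 ± 1.51 in WT and 2.58 ± 0.949 in HO (-1.19, SE 0.17, adjusted p = 6.06e-05), and Fbl, the rRNA methyltransferase fibrillarin, 32.4 ± 5.50 and 15.6 ± 3.90 (-1.02, SE 0.16, adjusted p = 0.000126). Under median-of-ratios scaling 9 of the 20 were lower in HO (25.2% of all genes) and 12 higher in DHO against HO (27.7%). Without HO 1, DHO 3 and DHO 4, 11 of the 20 were higher in DHO against HO, a count for which the share of all genes in that setting is not given. Of 12 chaperones and escorts of ribosomal proteins, 7 were lower in HO (median -0.47), where 42.9% of all genes were, and 8 higher in DHO against HO, where 42.8% were, with Aatf (-0.81), Rps19bp1 (-0.69) and Bccip (-0.58) among the lower. Median-of-ratios scaling left 4 of the 12 lower, and 25.2% of all genes.

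The host transcripts of small nucleolar RNAs, which share the 5′ TOP start with the members, were lower in HO in 4 of 9 cases (median -0.37), a share near the 42.9% of all genes. In DHO against HO 8 were higher (median 0.81), where 42.8% of all genes were. Gas5 averaged 83.5 ± 7.30 for WT, 50.9 ± 8.60 for HO and 95.7 ± 17.0 for DHO, a change of -0.71 (SE 0.14, adjusted p = 0.000567) between HO and WT. Snhg12 stood at -0.05 and did not pass. Without HO 1, DHO 3 and DHO 4, 3 were lower in HO and 4 higher in DHO against HO. The share of all genes called in that setting is not given, so these counts cannot be read as a trait of the list. Median-of-ratios scaling left 2 lower in HO, where 25.2% of all genes were.

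Genes that govern the members' translation did not move as one group. Of 18 genes of the mTOR pathway and its 5′ TOP branch, 10 were lower and 2 higher in HO. Over all genes 42.9% were lower and 12.4% higher. The median of the 18 was -0.31, close to the -0.25 of all genes. Larp1, which binds 5′ TOP messenger RNAs, averaged 18.4 ± 2.13 in WT and 8.32 ± 2.74 in HO (-1.10, SE 0.17, adjusted p = 0.000121), and Larp4, which binds poly(A), 11.2 ± 0.853 and 5.06 ± 0.984 (-1.02, SE 0.11, adjusted p = 8.69e-06). Rptor and Mlst8, subunits of the mTOR complex, changed by -0.56 and -0.69. The 2 higher genes were Eif4ebp1, the repressor of cap-dependent initiation (0.94), and Ddit4, an inhibitor of mTOR induced by stress (0.96). Under median-of-ratios scaling 4 of the 18 were lower and 2 higher, where 25.2% and 22.0% of all genes were.

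Since Rpl5 and Rpl11 can act on Mdm2, 9 genes of that branch were read too. Cdkn1a, the cell cycle inhibitor p21, averaged 193 ± 11.8 FPKM for WT, 355 ± 57.9 for HO and 189 ± 18.3 for DHO, a change of 0.86 (SE 0.11, adjusted p = 3.30e-05) between HO and WT. Mdm2 was also higher, with 6.37 ± 0.422 in WT and 9.84 ± 1.65 in HO (0.55, SE 0.12, adjusted p = 0.00132). Trp53, Rpf2 and Sesn1 were lower (-0.67, -0.69 and -1.15), and the other 4 did not pass. Among all genes tested, 42.9% were lower and 12.4% higher in HO against WT. Ccng1, a p53 target, was the 1 gene of the list that passed between DHO and WT, where 0.0794% of all genes were higher and 0.159% lower. It averaged 42.8 ± 5.65 in DHO and 25.4 ± 2.52 in WT (0.73, SE 0.13, adjusted p = 0.0321), and it did not pass under quantile normalization. Of 13 tested genes that handle stalled ribosomes 5 were lower in HO and 0 higher. That is no larger a share than the 42.9% of all genes that were lower. Among the 5 were G3bp1 (-1.05), Usp10 (-0.89) and Gcn1 (-0.59). Under median-of-ratios scaling 3 of the 13 were lower and 1 higher, where 25.2% and 22.0% of all genes were.

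Markers of dividing, stem and Paneth cells moved with the members between the groups, and their part in the result was not tested. All 4 proliferation markers were lower in HO (median -2.42), and their summed level was 48.1 to 78.3 FPKM in WT, 5.26 to 11.0 in HO and 46.9 to 84.6 in DHO. Mki67 averaged 10.7 ± 1.63, 1.51 ± 0.419 and 8.93 ± 2.95. All 3 stem cell markers were lower in HO, with sums of 48.8 to 199.6 FPKM in WT, 1.12 to 7.96 in HO and 59.9 to 157 in DHO, and so were all 3 Paneth cell markers, with sums of 1109 to 5439, 333 to 1656 and 966 to 2935. None of these was at 0 in any library. Within HO, the stem cell sum was lowest in HO 4 (1.12 FPKM), a library in which the members stood high. The proliferation and Paneth cell sums were highest in HO 3 (11.0 and 1656), followed by HO 4 (9.82 and 613). In DHO against HO, 4 of 4 proliferation, 2 of 3 stem cell and 2 of 3 Paneth cell markers were higher. Over all genes 42.8% were higher.

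Markers of other cell types did not share that direction throughout. Over all genes 42.9% were lower and 12.4% higher in HO against WT. Of 5 smooth muscle markers 3 were higher in HO, with sums of 114 to 819 FPKM in WT, 266 to 1281 in HO and 298 to 909 in DHO. Both neutrophil markers tested of 3 were higher in HO, with sums of 0.101 to 0.802, 2.13 to 28.0 and 0 to 1.18 FPKM, and all 3 were at 0 in DHO 1. Of 3 T cell markers 2 were lower in HO (0 under median-of-ratios scaling). All 3 (1 under that scaling) were lower in DHO than in WT, a comparison in which no member passed. There 0.159% of all genes were lower, and 0.0971% under that scaling. The T cell marker sums were 20.5 to 29.8 in WT, 14.0 to 27.0 in HO and 8.73 to 13.1 in DHO. Among 5 epithelial markers 1 was higher and 1 lower in HO, with sums of 7925 to 9230.4 FPKM in WT, 6529 to 8010.4 in HO and 6843 to 8428 in DHO. Of 3 plasma cell markers 1 was lower in HO (0 under that scaling), with sums of 492 to 633, 248 to 528 and 153 to 400.1. Of 5 B cell markers 2 were tested, and neither passed.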

How the data were processed

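Each of the 15 ileum samples gave 1 library; the labels give the genotype of each library, and replicate numbers follow the order of deposition. The authors deposited FPKM per gene symbol. The submitters' processing notes name mm10 as the genome build, and HTSeq, HISAT2 and fastp as tools; their versions, strand setting and the annotation are not given in the sources used here. FPKM divides by all reads and by gene length, so a few very abundant genes lower the values of all others.

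Reads were recovered from the steps of the low values: 99.99% of genes above 0 came out whole in every library within 0.02 read. The main test was limma 3.58.1 in R 4.3.3 (trend, robust) on log2(FPKM + 1), in 1 fit of all 15 libraries, for the 11332 genes that reached 1 FPKM in 5 or more libraries, with Benjamini-Hochberg adjustment over all of them and a threshold of 0.05 in each of 3 comparisons. Fold changes on this scale are understated for low genes. Python 3.11.15 with numpy 2.4.6 and pandas 2.3.3 made the summaries. The fit was also run on simulated data in which a small set of genes changed, equally up and down. That setting is unlike the mostly downward shift in HO, so the run says nothing about how the fit handles it. Sequences came from RefSeq (GRCm38.p6) and GENCODE M21; intervals are 95%. Genes named are mainly, per comparison, the 5 called members with the largest rise, the 5 with the largest fall and the 3 nearest 0. Added were the 5 highest and 3 lowest tested members in WT and a fixed set of well-known members. From each list came the called and not called genes with the smallest p. Members and lists were chosen with earlier results of these data known. Alternatives were other filters, pseudocounts, scalings, limma-voom on recovered reads, and libraries left out. For the fits with libraries left out, the share of all genes called is not given. One gene of the lists is not reported here.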

Additional observations from a re-analysis of the deposited data

Results flagged for a closer look

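Among 114 groups of 5 libraries examined, over 36 named members and 2 summary measures, 8 held a library far from the other 4 by Dixon's gap test, where chance gives about 5%. Rpl28 was highest in DHO 2 at 859 FPKM, with the other DHO libraries at 742 to 764. Rplp2 was highest in WT 2 at 800.3, with the others at 654 to 689. Among paralogs, Rpl6l was lowest in WT 5 at 36.9 (others 41.9 to 42.8), Rpl37rt highest in DHO 3 at 35.9 (others 30.4 to 32.0), and Rpl32l lowest in WT 2 at 1.05 (others 1.46 to 1.62). Rpl39l stood at 0.0298 in WT 1 and at 0.0290 in DHO 4, and Rpl3l at 0.0140 in WT 1, each from a single read with 0 in the other 4 libraries. A single read against zeros is always flagged by this test, so these flags say nothing about spread.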

How the results depend on the processing

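The counts of members lower in HO, higher in DHO against HO, and called in DHO against WT stayed within 1.5 times under every alternative run. They were 84 to 85 lower in HO and 84 to 86 higher in DHO against HO, apart from the count without paralogs, 77 in each, and 0 in DHO against WT. The median member moved under median-of-ratios scaling to -0.69 in HO against WT and 0.70 in DHO against HO. With no filter, genes that had not reached 1 FPKM in 5 libraries also counted toward the median gene. The gap between the median member and the median gene then became -0.94 and 0.93, while the median member itself did not move. The cause of the wider gap was not tested. Leaving out 1 library gave medians of -1.04 to -0.86 and 0.85 to 1.03, and of -0.04 to 0.04 in DHO against WT. No named member changed direction in HO against WT or DHO against HO, and Rpl7l1 was the member that lost its call in both, under median-of-ratios scaling; in DHO against WT, where none was called, most named members lay on both sides of 0. No paired analysis was possible because the labels number no replicates, and the numbers used here are only names. Counts are low for Rpl32l, Rpl39l, Rpl3l and Rps23rg1; the other tested members had at least 324 reads in every library. Other limits are 5 libraries a group, unknown batches and tissue markers that differ between HO libraries.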
